A study of Mus musculus with 24 samples.

Results

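Semaphorins, plexins and neuropilins were followed through 3 stages of diaphragm formation in the mouse. They were taken as every gene with a symbol of Sema and a number, every gene whose symbol starts with Plxn, and Nrp1 and Nrp2. That gave 31 of the 19351 genes measured, 20 semaphorins, 9 plexins and 2 neuropilins, each read by a single probe set that matched no other gene. The tissue came from C57BL/6J embryos and was cut by laser capture from cryosections of the middle of the thorax. RNA was hybridised to arrays, 1 per sample, in 3 stage groups of 8 arrays. For the first 2 groups, E11.5 and E12.5, the tissue was the pleuroperitoneal fold, the paired ridge that gives rise to the diaphragm, in transverse sections. At E16.5 it was the muscularised diaphragm in sagittal sections, although the titles call it a fold too. No allele or treatment differed between the groups, so stage, tissue and section plane change together at E16.5 and cannot be told apart.

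Semaphorins are guidance proteins, some secreted and some held in the membrane, that share a domain for binding plexins. Plexins are the receptors that turn this binding into a signal: they act on small GTPases and so on the cell's shape and adhesion. Most secreted class 3 semaphorins need a neuropilin, Nrp1 or Nrp2, as a co-receptor beside an A-type plexin, and neuropilins also bind vascular endothelial growth factors. The family is known for steering axons and vessels and acts on neural crest and on bone too. In the mouse limb Sema3a and Nrp1 set when motor axons grow in. The folds receive both the phrenic nerve and migrating muscle progenitors.

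Values are log2 intensities, a change is the later stage minus the earlier one, and the error of a change is its standard error. The arrays were compared with limma over all genes, and a gene was called where its p, after Benjamini-Hochberg adjustment over the 19351 genes, lay under 0.05. Errors of means are SD with n = 8 arrays per stage. The labels do not say that the arrays of a stage came from separate embryos, so p-values measure the spread between these samples. In bulk tissue, fewer cells of a type and less RNA per cell cannot be told apart. The lower quartile of an array over genes, used here as the mark of a dim probe set, lay between 6.40 and 6.64. Only Sema4f had most arrays of a stage below it, 5 of 8 at E12.5 and 6 of 8 at E16.5. Sema3e had 1 such array in each of the E11.5 and E16.5 groups, and Sema3d 1 at E16.5. Levels of different genes come from different probes and cannot be ranked against each other.

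Replicates 1 to 4 and replicates 5 to 8 of E16.5 form 2 sets, for which the labels give no reason. This division was known from earlier results of the same arrays. It touches several genes of the family, and each call that changes without either set is given below. E12.5 replicates 2 and 3 also stood apart in the earlier results. Markers of differentiated skeletal muscle rose in 14 of 14 cases at E16.5 against E12.5, where 2223 of the 19351 genes rose. The median log2 change of the muscle markers was 3.28.

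Most of the family moved little, and its calls fell at E16.5, where most calls over all genes fell too. Of the 31 genes, 0 were called higher and 0 lower at E12.5 against E11.5, where 0.388% of all genes were called. At E16.5 against E12.5, 4 were higher and 10 lower, where 27.1% of all genes were called. At E16.5 against E11.5, 3 were higher and 10 lower, where 33.5% of all genes were called. The largest falls were in the secreted semaphorins Sema3d and Sema3a, and the largest rise was in the membrane-bound Sema6d. Receptors that were called fell: Plxna1, Plxna3, Plxnb1 and Plxnb2 at E16.5 against E12.5.

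**Figure D1:**
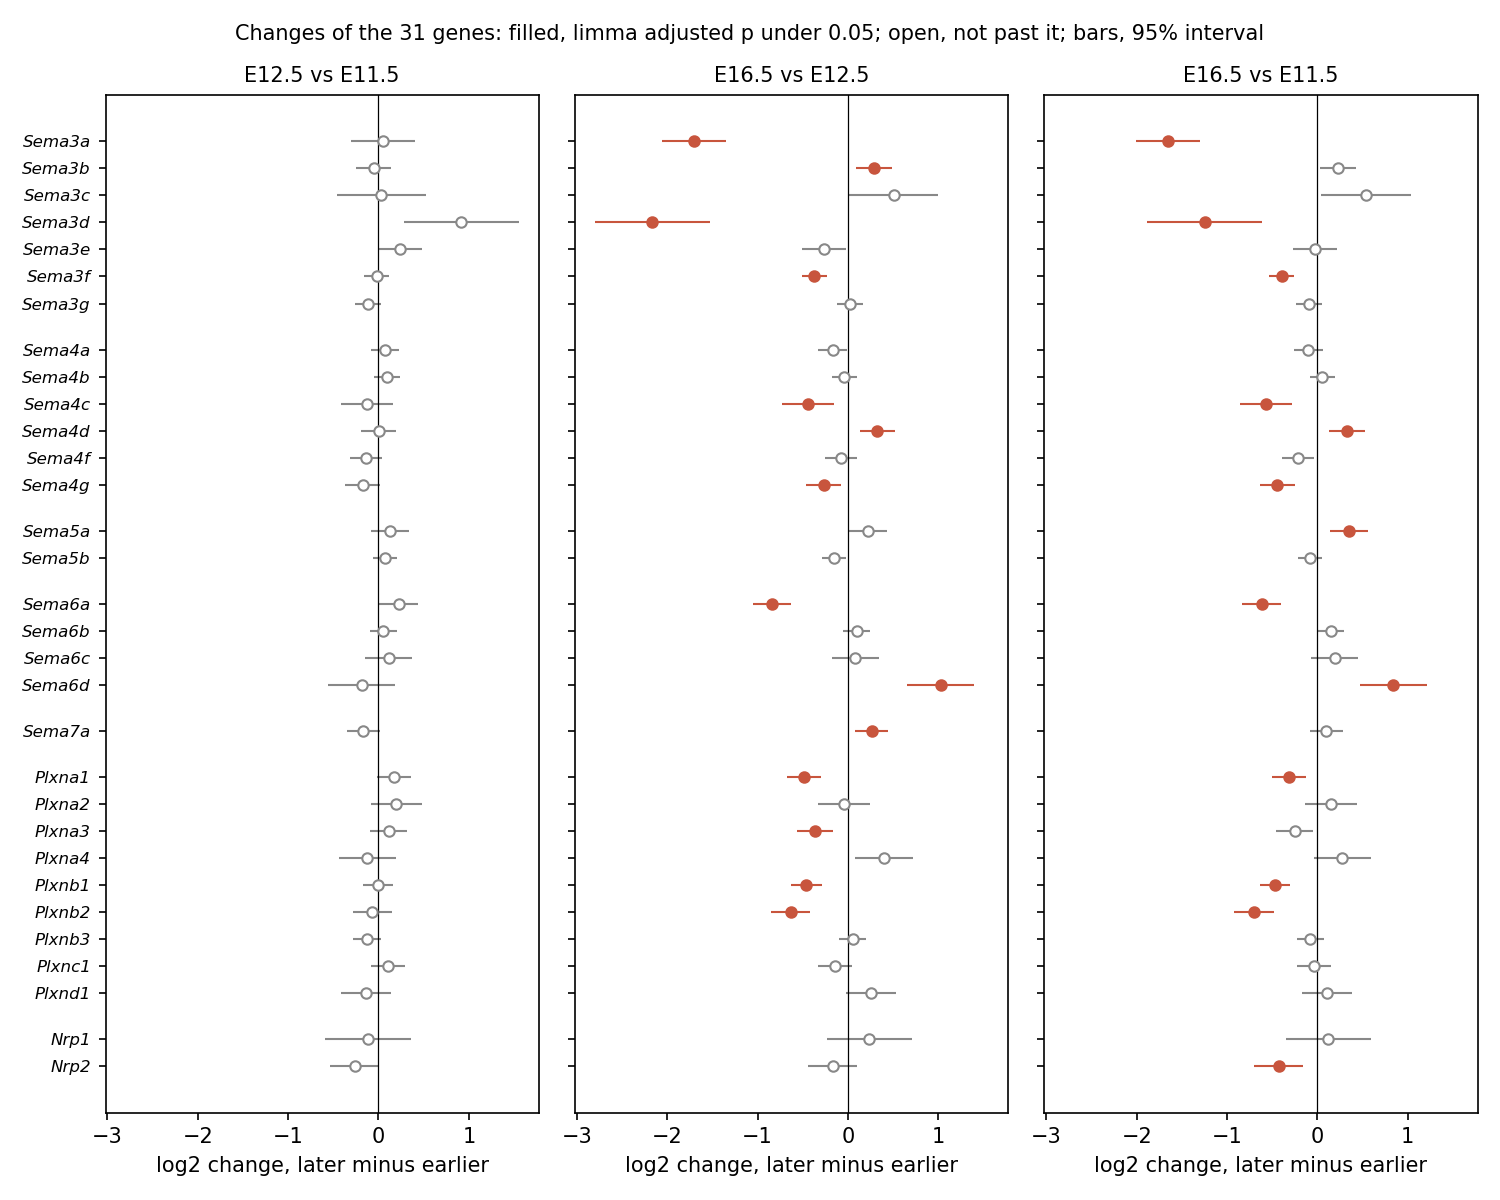
Log2 change of each of the 31 genes (rows, grouped by class) in the 3 comparisons (panels), with 95% intervals from limma; filled points had an adjusted p under 0.05. No point is filled at E12.5 against E11.5, and Sema3a, Sema3d and Sema6d lie farthest from 0 at E16.5 against E12.5.

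Between E11.5 and E12.5, called genes made up 0.331% of all genes in the higher direction and 0.0568% in the lower one, or 0.388% in both. At an unadjusted p under 0.05 in limma, 2 of the 31 were higher, Sema3d and Sema6a, and 0 lower. Changes ran from -0.26 for Nrp2 to 0.92 for Sema3d, with a median of 0.003 against -0.03 over all genes. Sema3d had the widest interval, 0.28 to 1.55, and an adjusted p of 0.192. Sema6a had a change of 0.22 with an interval of 0.01 to 0.44 (adjusted p = 0.334). For Sema3a the interval was -0.30 to 0.41, and for Nrp1 it was -0.59 to 0.36, so changes within these intervals remain possible. The intervals do not give the smallest change that 8 arrays a stage would call, since Sema3d, at 0.92, was not called.

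At E16.5 against E12.5, 32.3% of the 31 genes were called lower, where 15.6% of all genes were, and 12.9% were called higher, where 2223 of the 19351 genes were. In both directions together it was 45.2%, against 27.1% of all genes. The median change was -0.08, against -0.02 over all genes. By 2-fold or more, 2 were lower and 1 higher, against 1.76% and 3.63% of all genes. Ranges did not overlap for 4 lower genes (Sema3a, Sema3f, Sema6a and Plxnb1) and 1 higher (Sema6d), where 5.4% and 4.69% of all genes were so separated. At E16.5 against E11.5, 32.3% were lower, where 19.6% of all genes were, and 9.68% were higher, where 13.8% of all genes were, or 41.9% against 33.5% in both directions. Here ranges did not overlap for 4 lower genes (Sema3a, Sema3f, Sema6a and Plxnb2) and 0 higher, where 3.86% and 5.22% of all genes were so separated. Both comparisons use the same E16.5 arrays and are not independent.

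Class 3 holds the 7 secreted semaphorins of vertebrates. Sema3a (probe set 10519717), which repels axons by way of Nrp1 and A-type plexins, lay at 9.89 to 11.05 at E11.5 (median 10.38), 9.79 to 10.96 at E12.5 (median 10.60) and 8.02 to 9.16 at E16.5 (median 8.92). The E16.5 arrays were all below every array of the folds. The change was -1.71 ± 0.17 at E16.5 against E12.5, or 3.26-fold lower (limma adjusted p = 2.96e-08). Against E11.5 it was -1.65 ± 0.17, or 3.14-fold lower (adjusted p = 3.56e-08).

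Sema3d (probe set 10519693), which guides axons and neural crest cells and is needed for the patterning of pulmonary veins in the mouse, lay at 7.43 to 9.58 at E11.5 (median 8.13), 8.11 to 9.80 at E12.5 (median 9.39) and 6.20 to 8.22 at E16.5 (median 7.20). The E12.5 and E16.5 values met at a single array on each side. E12.5 replicate 4 was low at 8.11 and E16.5 replicate 7 high at 8.22, while the other arrays were at 9.07 or more at E12.5 and at 7.43 or less at E16.5. The change was -2.17 ± 0.31 at E16.5 against E12.5, or 4.49-fold lower (adjusted p = 5.74e-06). Against E11.5 it was -1.25 ± 0.31 (adjusted p = 0.00271), and that call was lost without E16.5 replicates 1 to 4 (-0.79, adjusted p = 0.133).

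Sema3f, the ligand typical of Nrp2, was the third class 3 gene to fall. It lay at 8.39 to 8.74 at E11.5, 8.34 to 8.71 at E12.5 and 7.88 to 8.27 at E16.5, so no E16.5 array reached the folds' range. The fall was small but even: -0.37 ± 0.07 against E12.5 (adjusted p = 0.000111) and -0.39 ± 0.07 against E11.5 (adjusted p = 5e-05). Sema3b, a close relative that uses both neuropilins, rose by 0.29 ± 0.10 at E16.5 against E12.5 (adjusted p = 0.0274), with overlapping ranges of 7.34 to 7.83 at E16.5 and 6.89 to 7.45 at E12.5. This call was lost without any 1 of 5 arrays, E12.5 replicates 2 and 6 and E16.5 replicates 1, 7 and 8 (adjusted p up to 0.0652), and without either set of E16.5 arrays. Against E11.5 Sema3b had 0.23 ± 0.10 (adjusted p = 0.0661), which passed without E11.5 replicate 2 (0.0177), E12.5 replicate 2 (0.0486) or E16.5 replicate 2 (0.0494).

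The other 3 class 3 genes were not called. Sema3c, which acts in the cardiac outflow tract through neuropilins with plexins, had 8.02 to 9.14 at E16.5 against 7.17 to 8.84 at E12.5. Its change was 0.50 ± 0.24 (interval 0.01 to 1.0, adjusted p = 0.132), and it passed without E12.5 replicate 1 (adjusted p = 0.0451). Against E11.5 it was 0.54 ± 0.24 (adjusted p = 0.0891), passing without E11.5 replicate 6 (0.0413). Sema3e, which binds Plxnd1 without a neuropilin, had -0.27 ± 0.12 at E16.5 against E12.5 (adjusted p = 0.0966) and passed without E12.5 replicate 4 (0.0336) or E16.5 replicate 7 (0.032). Sema3g, an Nrp2 ligand of vessels, had 0.03 ± 0.07 (interval -0.12 to 0.17).

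In the RefSeq annotation of GRCm38.p6, Sema3d, Sema3a, Sema3e and Sema3c lie in this order on chromosome 5. Their values did not move as a block, with Sema3d and Sema3a lower at E16.5, and Sema3e and Sema3c not called. Sema3b and Sema3f both lie on chromosome 9, where Sema3f fell and Sema3b rose against E12.5. The promoter windows of 3 of the chromosome 5 genes are shown to let a reader compare the letters at the starts of the genes with the largest falls, Sema3d and Sema3a, and of a neighbour that was not called, Sema3c. They were chosen after their values were seen, and nothing about the changes is drawn from their content of CpG, the dinucleotide of CpG islands. Each runs from 250 bases before to 50 bases after a RefSeq start on the plus strand, GRCm38.p6, with each CpG in capitals: chr5:12382916-12383215 for Sema3d, chr5:13396534-13396833 for Sema3a and chr5:17574566-17574865 for Sema3c.
Sema3d: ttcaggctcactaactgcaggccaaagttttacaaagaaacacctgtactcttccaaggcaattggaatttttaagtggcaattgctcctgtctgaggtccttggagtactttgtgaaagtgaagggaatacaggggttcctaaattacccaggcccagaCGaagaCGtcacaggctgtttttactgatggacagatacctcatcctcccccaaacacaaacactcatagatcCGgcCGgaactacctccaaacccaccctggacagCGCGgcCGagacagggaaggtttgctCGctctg
Sema3a: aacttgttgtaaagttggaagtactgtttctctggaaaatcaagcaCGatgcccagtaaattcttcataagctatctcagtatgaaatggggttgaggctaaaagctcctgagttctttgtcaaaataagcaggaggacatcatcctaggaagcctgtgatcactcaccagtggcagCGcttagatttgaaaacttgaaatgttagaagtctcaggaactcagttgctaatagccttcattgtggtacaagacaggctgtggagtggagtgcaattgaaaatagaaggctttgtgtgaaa
Sema3c: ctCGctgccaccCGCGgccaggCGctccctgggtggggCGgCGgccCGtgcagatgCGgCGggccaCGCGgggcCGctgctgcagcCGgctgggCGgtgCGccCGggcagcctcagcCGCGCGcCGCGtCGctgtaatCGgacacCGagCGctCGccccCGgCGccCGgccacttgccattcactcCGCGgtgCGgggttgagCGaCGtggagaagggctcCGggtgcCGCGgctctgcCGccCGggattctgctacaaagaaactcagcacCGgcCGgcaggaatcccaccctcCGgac

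The Sema3a window holds 2 CpG and is 41.3% G and C, the Sema3d window holds 8 at 49.7%, and the Sema3c window holds 42 at 75.7%. The window of Sema3e, also not called, holds 11 at 50.7%. These windows do not stand for the family: the median was 19 CpG (67.7% G and C) over the 9 windows of genes called lower at E16.5 against E12.5, 4.5 CpG (53.1%) over the 6 of genes called higher, and 18.5 CpG (63.8%) over the 22 of genes not called. The windows came from 7, 3 and 16 genes, and a gene with several starts, such as Sema4d among those called higher, counts more than once. Over all 32851 windows the median was 7 CpG and 52.7% G and C. RefSeq windows of 26 of the 31 genes were used, 37 windows in all because some genes have several starts. Windows on chromosome 18, where Sema6a lies, were not taken for the family, a filter not applied to the 32851 windows. The family's values thus leave out Sema6a, which was called lower. Plxna1, Plxna4, Sema3b and Sema3f had no window either. Of these, Plxna1 and Sema3f were called lower and Sema3b higher at E16.5 against E12.5. The median of the 37 windows was 15 CpG and 63.7% G and C. The motif GGGCGG, the box bound by Sp1-type factors, was present on either strand in 73.0% of the family's windows and in 35.7% of all windows. The E-box CAGCTG was present in 16.2% against 16.3%, the nuclear receptor element AGGTCA in 18.9% against 16.3%, and TATAAA in 0 of 37 windows against 13.6%. CAGCTG reads the same on both strands, none of the motifs contains another, and a match describes the window only.

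**Figure D2:**
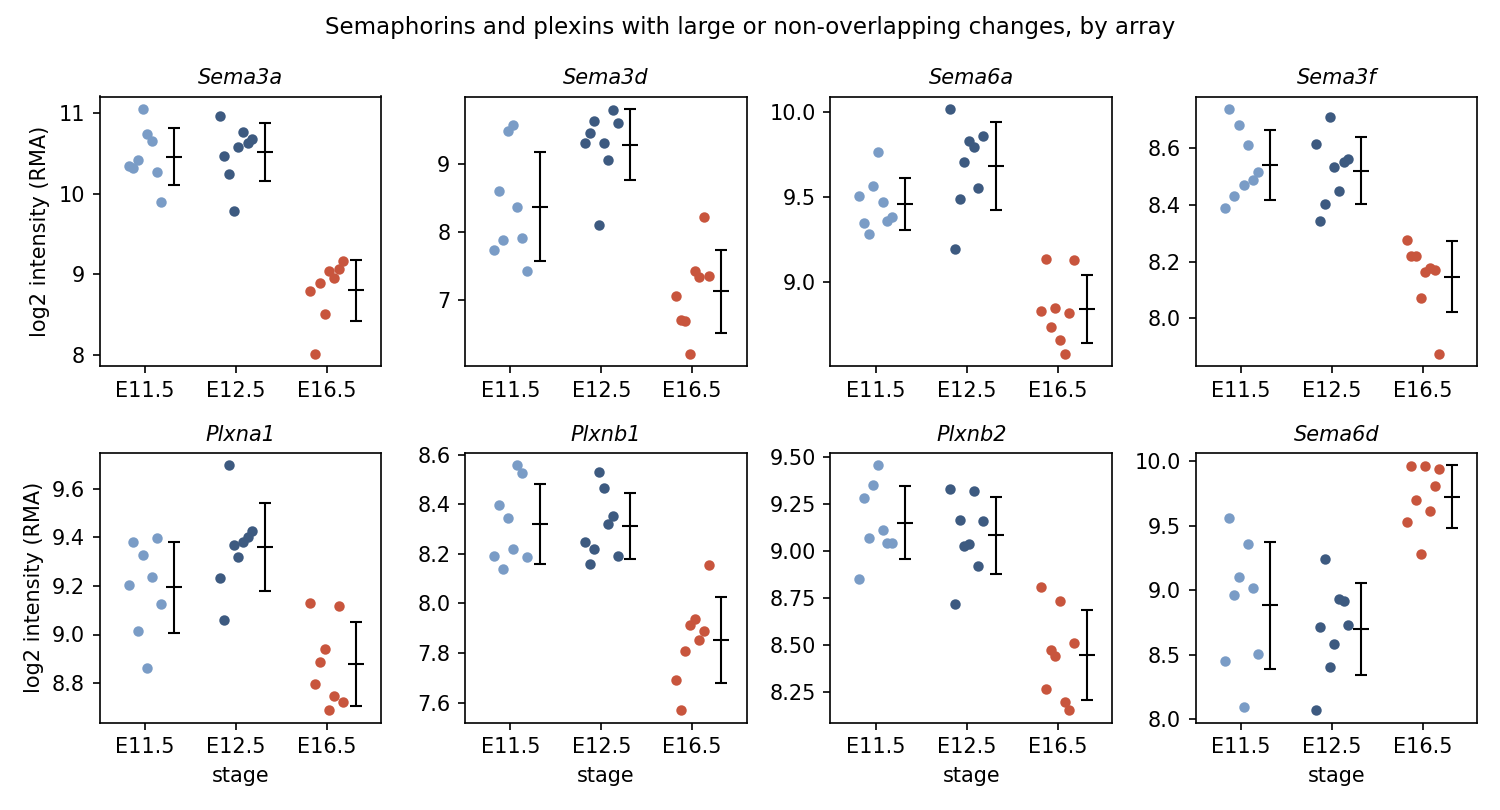
Log2 intensity of 8 genes on each array at E11.5, E12.5 and E16.5 (points, 8 arrays per stage), with the stage mean and SD beside them; each panel has its own vertical range. E16.5 arrays lie below the folds for Sema3a, Sema3f and Sema6a, and above all E12.5 arrays for Sema6d.

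Class 6 semaphorins are transmembrane ligands that bind A-type plexins directly, and 2 of the 4 moved in opposite directions. Sema6a (probe set 10458843), a ligand of Plxna2 and Plxna4 that positions neurons and axons, lay at 9.29 to 9.77 at E11.5 (median 9.43), 9.20 to 10.02 at E12.5 (median 9.75) and 8.58 to 9.13 at E16.5 (median 8.82). All E16.5 arrays were below all arrays of the folds. The fall was -0.84 ± 0.10 against E12.5, or 1.79-fold (adjusted p = 7.62e-07), and -0.62 ± 0.10 against E11.5 (adjusted p = 4.41e-05).

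Sema6d (probe set 10475544), which acts through Plxna1 in heart morphogenesis of the chick, lay at 8.10 to 9.56 at E11.5 (median 8.99), 8.07 to 9.25 at E12.5 (median 8.72) and 9.28 to 9.97 at E16.5 (median 9.75). Every E16.5 array was above every E12.5 array, while the E11.5 range reached into that of E16.5. Sema6d rose by 1.02 ± 0.18 against E12.5, or 2.03-fold (adjusted p = 8.85e-05), and by 0.84 ± 0.18 against E11.5 (adjusted p = 0.000691). It was the single rise of the family that kept its call under each alternative tried. Sema6b, a Plxna4 ligand, and Sema6c were not called, with 0.10 ± 0.07 and 0.08 ± 0.13 at E16.5 against E12.5.

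Class 4 semaphorins are transmembrane proteins that signal mostly through B-type plexins, and each of the 3 that were called moved by less than 1 on the log2 scale. Sema4d, the Plxnb1 ligand also known as CD100 of lymphocytes, lay at 7.55 to 7.98 at E16.5 against 7.25 to 7.87 at E12.5. It rose by 0.33 ± 0.09 against E12.5 (adjusted p = 0.011) and by 0.33 ± 0.09 against E11.5 (adjusted p = 0.00914). Both calls were lost without E16.5 replicates 1 to 4 (0.21 with adjusted p = 0.268, and 0.22 with adjusted p = 0.213).

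Sema4c, a Plxnb2 ligand, lay at 7.02 to 7.72 at E16.5 against 7.50 to 8.32 at E12.5. It fell by 0.44 ± 0.14 against E12.5 (limma change -0.44, adjusted p = 0.0208) and had -0.57 ± 0.14 against E11.5 (adjusted p = 0.00287). The first call was lost without E12.5 replicate 6 (adjusted p = 0.0505), and both were lost without E16.5 replicates 5 to 8 (0.205 and 0.0567). Sema4g, another ligand of Plxnb2, had -0.27 ± 0.09 against E12.5 (adjusted p = 0.0339), a call lost without any 1 of 9 arrays, namely E12.5 replicates 2, 3, 5 and 6 and E16.5 replicates 2, 3, 4, 6 and 8 (adjusted p up to 0.0686). Its fall against E11.5, -0.44 ± 0.09 (adjusted p = 0.000582), kept its call under each alternative tried.

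Sema4a, Sema4b and Sema4f were not called in any comparison. Sema4f had -0.22 ± 0.09 at E16.5 against E11.5 (adjusted p = 0.0578), with most E16.5 arrays below the lower quartile, and passed under 8 of 35 alternatives: without E11.5 replicate 4 (0.00405), E16.5 replicate 1 (0.0456) or 2 (0.0431), E16.5 replicates 1 to 4 (0.0435) or E12.5 replicates 2 and 3 (0.0485), and with quantile normalization (0.0454), median centring (0.0311) or array weights (0.0431). Class 5 semaphorins carry thrombospondin repeats, through which they bind proteoglycans. Sema5a lay at 8.58 to 9.21 at E16.5 against 8.10 to 8.82 at E11.5 and rose by 0.35 ± 0.10 (adjusted p = 0.011), a call lost without E16.5 replicates 1 to 4 (0.26, adjusted p = 0.12). Against E12.5 it had 0.22 ± 0.10 (adjusted p = 0.131). Sema5b had -0.15 ± 0.06 at E16.5 against E12.5 (adjusted p = 0.0837), passing without E16.5 replicate 2 (0.026).

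Sema7a, which is anchored in the membrane by a lipid and binds Plxnc1 and beta-1 integrins, lay at 6.85 to 7.37 at E16.5 against 6.60 to 6.99 at E12.5. It rose by 0.26 ± 0.09 (adjusted p = 0.0266), and the call was lost without E12.5 replicate 7 (adjusted p = 0.0529) or E16.5 replicate 1 (0.0663), as well as without E16.5 replicates 1 to 4 (0.201). Of its partners, Plxnc1 had -0.15 ± 0.09 over the same interval (interval -0.33 to 0.04, adjusted p = 0.273). Itgb1, the beta-1 integrin, rose by 0.24 ± 0.08 (adjusted p = 0.0187); it is named here as a partner, after its values were seen.

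Of the 3 B-type plexins, Plxnb1 and Plxnb2 fell and Plxnb3 was not called. Plxnb2, which binds class 4 semaphorins, lay at 8.85 to 9.45 at E11.5 (median 9.09), 8.72 to 9.33 at E12.5 (median 9.10) and 8.15 to 8.81 at E16.5 (median 8.46). E16.5 replicates 1 and 5, at 8.81 and 8.73, were just above E12.5 replicate 2, at 8.72, and all other E16.5 arrays were below the folds. The change was -0.64 ± 0.11 against E12.5, or 1.55-fold lower (adjusted p = 4.5e-05), and -0.70 ± 0.11 against E11.5, or 1.63-fold lower (adjusted p = 9.93e-06).

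Plxnb1, the receptor of Sema4d, lay at 8.14 to 8.56 at E11.5 (median 8.28), 8.16 to 8.53 at E12.5 (median 8.28) and 7.57 to 8.16 at E16.5 (median 7.87). It fell by 0.46 ± 0.08 against E12.5 (limma change -0.46, adjusted p = 9.75e-05), and had -0.47 ± 0.08 against E11.5 (adjusted p = 6.58e-05). The E12.5 and E16.5 ranges did not overlap but nearly met, at 8.158 and 8.1565. Over the interval in which Sema4d was called higher, its receptor was thus called lower. Plxnb3, a receptor of Sema5a, had 0.05 ± 0.07 against E12.5 (interval -0.10 to 0.20) and -0.08 ± 0.07 against E11.5.

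A-type plexins, the partners of neuropilins and the receptors of class 6, did not share a direction. Plxna1 lay at 8.86 to 9.40 at E11.5, 9.06 to 9.70 at E12.5 and 8.69 to 9.13 at E16.5, and its change was -0.48 ± 0.09 at E16.5 against E12.5 (adjusted p = 0.000204). Against E11.5 it was -0.31 ± 0.09 (adjusted p = 0.00906), a call lost without E16.5 replicates 5 to 8 (adjusted p = 0.0896). Plxna3, a partner of Nrp2 in the response to Sema3f, lay at 7.49 to 8.17 at E16.5 against 8.01 to 8.53 at E12.5, a change of -0.36 ± 0.10 (adjusted p = 0.00653). That call was lost without E16.5 replicates 1 to 4 (-0.20, adjusted p = 0.23). Against E11.5 Plxna3 had -0.25 ± 0.10 (adjusted p = 0.0525), which passed without any 1 of 6 arrays, E11.5 replicates 3 and 4, E12.5 replicate 5 and E16.5 replicates 6, 7 and 8 (adjusted p as low as 0.0216).

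Plxna2 and Plxna4 were not called. Plxna2 had -0.05 ± 0.14 at E16.5 against E12.5 (interval -0.34 to 0.24). Plxna4, the main A-type partner of Nrp1 in sensory and sympathetic neurons, lay at 8.42 to 9.53 at E16.5 against 8.11 to 8.84 at E12.5, with a change of 0.40 ± 0.15 (interval 0.08 to 0.72, adjusted p = 0.0554). It passed without any 1 of 6 arrays, E11.5 replicates 4 and 6, E12.5 replicate 2 and E16.5 replicates 6, 7 and 8 (adjusted p as low as 0.024), and also after quantile normalization (0.0283). Plxnd1, the Sema3e receptor of endothelium, had 0.25 ± 0.13 (interval -0.02 to 0.53, adjusted p = 0.185).

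The neuropilins had no call against E12.5. Nrp1, the co-receptor of Sema3a and of Vegfa, lay at 8.26 to 10.10 at E11.5 (median 9.37), 8.27 to 9.69 at E12.5 (median 9.14) and 8.93 to 9.77 at E16.5 (median 9.33). The range at E11.5 covered that at E16.5 whole. Its change was 0.24 ± 0.23 against E12.5 (interval -0.24 to 0.71, adjusted p = 0.519) and 0.12 ± 0.23 against E11.5 (interval -0.35 to 0.59, adjusted p = 0.715). Nrp2, the co-receptor of Sema3f and Vegfc, lay at 8.46 to 8.97 at E11.5 (median 8.59), 8.21 to 8.73 at E12.5 (median 8.41) and 7.63 to 8.98 at E16.5 (median 8.25). It was lower at E16.5 than at E11.5, with -0.43 ± 0.13 (adjusted p = 0.014), and had -0.17 ± 0.13 against E12.5 (adjusted p = 0.411). E16.5 replicate 5, at 8.98, was above all E11.5 arrays, whereas the other E16.5 arrays were at 8.47 or less.

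**Figure D3:**
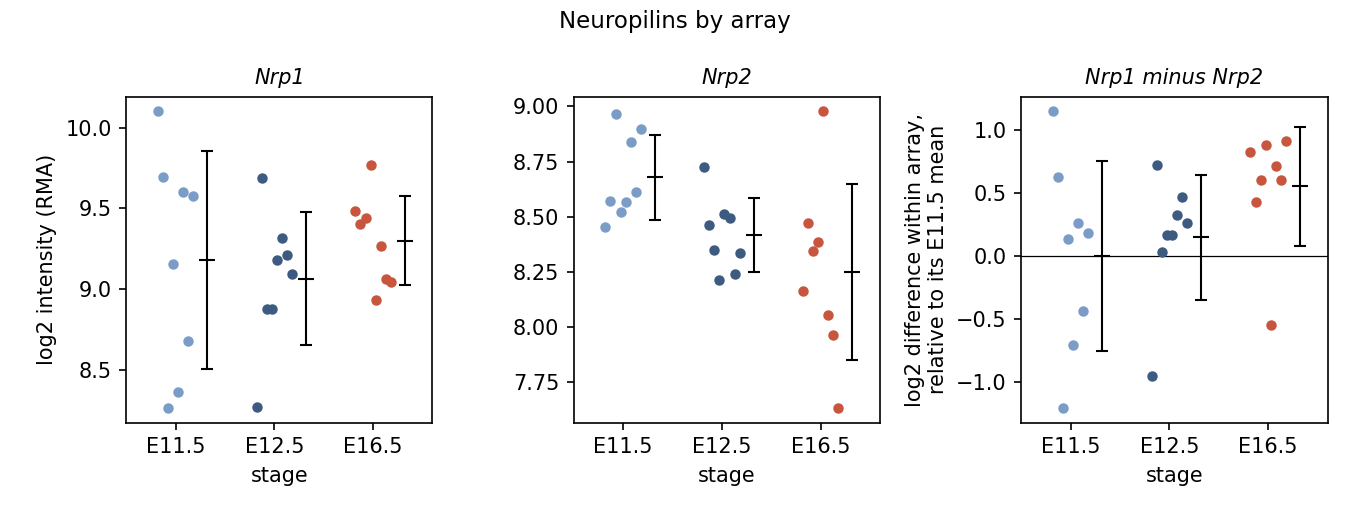
Log2 intensity of Nrp1 and Nrp2 and the difference between them within each array (points, 8 arrays per stage), with stage mean and SD. The third panel is set to 0 at the E11.5 mean, since the offset between both probe sets has no meaning; its mean is 0.55 higher at E16.5 than at E11.5, with overlapping ranges.

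The difference Nrp1 minus Nrp2 within an array does not depend on how arrays are centred. Its level has no meaning across 2 probe sets, but its change between stages shows whether both moved unequally. It was higher by 0.55 at E16.5 than at E11.5, with SDs of 0.47 and 0.75, and did not pass (exact permutation test over arrays, two-sided, p = 0.1, n = 8 each). At E16.5 against E12.5 the change was 0.40 (exact permutation p = 0.122). At E12.5 against E11.5 it was 0.15 (exact permutation p = 0.652), and without E11.5 replicate 3 its direction turned (-0.03, exact permutation p = 0.929). The smallest p that 12870 arrangements can give is 0.000155. Without E16.5 replicate 5 the change was 0.71 against E11.5 (exact permutation p = 0.0292) and 0.56 against E12.5 (exact permutation p = 0.0042). Without E11.5 replicate 1 it was 0.71 against E11.5 (exact permutation p = 0.0308).

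The spread between arrays of a stage differed widely among the genes. At E11.5 the median SD of the 31 genes was 0.19, against 0.22 over all genes. For E12.5 these medians were 0.20 and 0.18, and for E16.5 they were 0.20 and 0.19. Sema3d had an SD of 0.81 at E11.5, larger than that of 98.5% of all genes, and of 0.53 and 0.61 at E12.5 and E16.5. Nrp1 followed at E11.5 with 0.68, above 96.6% of genes, and had 0.28 at E16.5. Sema3c lay above 91.8% or more of the genes at each stage. Sema3g had the smallest SD at E12.5, 0.07.

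The 2 sets of E16.5 arrays differed in 6 of the 31 genes to the point of no overlap, or 19.4%, where 11.6% of all genes were as well separated. Replicates 1 to 4 were higher than replicates 5 to 8 for Nrp1 (9.40 to 9.77 against 8.93 to 9.27), Plxna4 (8.89 to 9.53 against 8.42 to 8.77), Sema4d (7.95 to 7.98 against 7.55 to 7.88) and Sema6c (7.98 to 8.30 against 7.63 to 7.77). They were lower for Sema3a (8.02 to 8.89 against 8.95 to 9.16) and Sema3d (6.20 to 7.06 against 7.34 to 8.22). The genes with the largest falls after E12.5 were thus lowest in replicates 1 to 4. Both sets were below the folds for Sema3a. No test was made, because the division was found in these arrays. Endothelial marker means were 8.78 to 9.06 in replicates 1 to 4 and 8.12 to 8.44 in replicates 5 to 8, and muscle marker means were 12.95 to 13.13 and 12.49 to 12.78. Red blood cell marker means did not overlap either and ran the other way, 7.58 to 8.17 in replicates 1 to 4 and 8.30 to 8.94 in replicates 5 to 8. The ranges of the other 6 lists overlapped, with mesothelial medians of 8.02 and 8.62. The part of these cells in the differences was not tested.

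**Figure D4:**
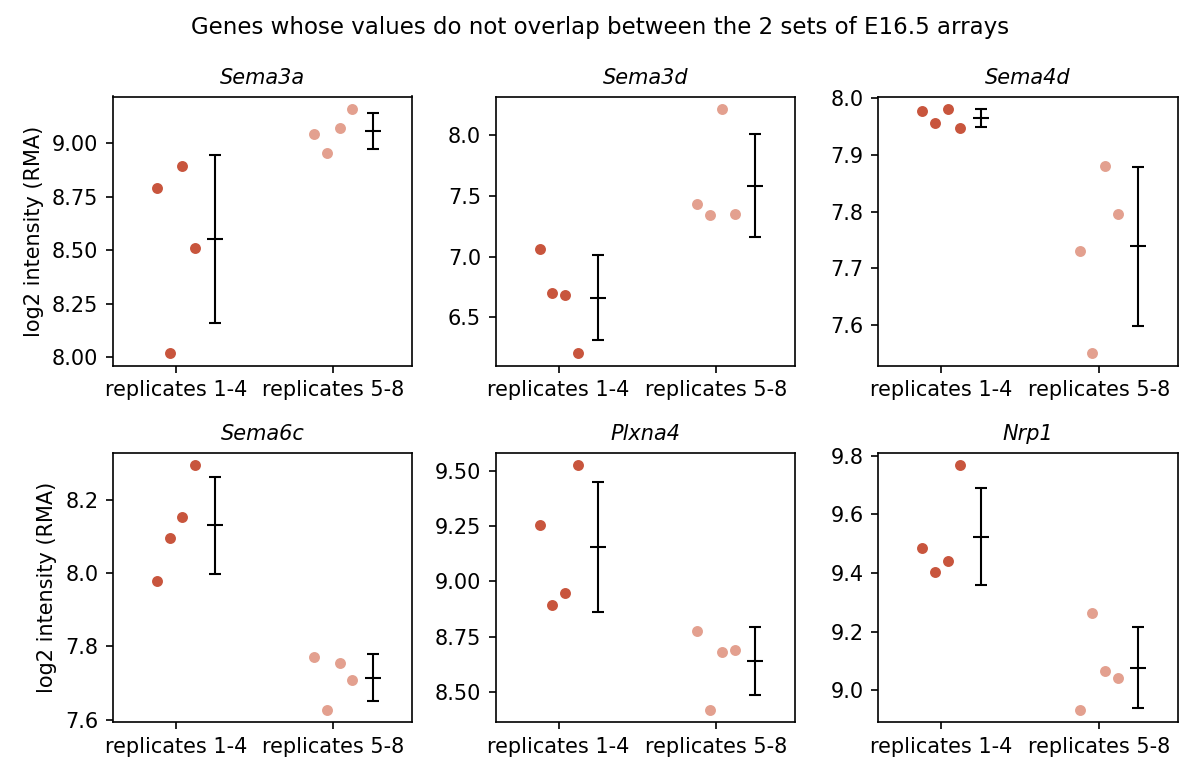
Log2 intensity at E16.5 of the 6 genes whose values do not overlap between replicates 1 to 4 and replicates 5 to 8 (points, 4 arrays each), with set mean and SD; each panel has its own vertical range. Sema3a and Sema3d are lower and the other 4 higher in replicates 1 to 4.

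Without E16.5 replicates 1 to 4, 1 gene of the family was called higher and 9 lower at E16.5 against E12.5, where 7.93% and 10.1% of all genes were. Without replicates 5 to 8, 5 were higher and 9 lower, against 11.7% and 13.7% of all genes. Against E11.5, 1 was higher and 10 lower without replicates 1 to 4 (10.2% and 11.9% of all genes), and 6 were higher and 9 lower without replicates 5 to 8 (13.0% and 15.3%). The count of higher genes in the family thus depends on which set is kept. Without E16.5 replicate 1 alone, 2 were higher and 10 lower against E12.5, where 10.8% and 14.7% of all genes were.

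Further calls changed without a set. Without replicates 5 to 8, Plxna4 passed against E12.5 (0.66, adjusted p = 0.00774) and against E11.5 (0.53, adjusted p = 0.0276). Plxnd1 (0.47, adjusted p = 0.0161) and Sema3e (-0.40, adjusted p = 0.0322) passed against E12.5. Against E11.5, Sema3c (0.83, adjusted p = 0.0426), Sema6c (0.40, adjusted p = 0.0472) and Plxna3 (-0.41, adjusted p = 0.00583) passed. Sema4g lost its call against E12.5 without either set (adjusted p = 0.241 without replicates 1 to 4 and 0.0706 without replicates 5 to 8), and Sema5b passed without replicates 1 to 4 (-0.23, adjusted p = 0.0366). Nrp1 was not called in any of these fits, but its direction against E11.5 turned, with -0.10 without replicates 1 to 4 (adjusted p = 0.831) and 0.34 without replicates 5 to 8 (adjusted p = 0.411).

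Partners and effectors of the family were taken as a list of 49 genes, of which 47 were measured. At E16.5 against E12.5, 9 of them rose (19.1%) and 12 fell (25.5%), with a median of -0.07, where 2223 of the 19351 genes rose and 15.6% fell. At E16.5 against E11.5, 9 rose (19.1%) and 13 fell (27.7%), with a median of -0.10, where 13.8% of all genes rose and 19.6% fell. At E12.5 against E11.5, 0 were called in either direction by limma (unadjusted, 3 higher and 2 lower).

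Among binding partners, 5 of 18 rose (27.8%, where 2223 of the 19351 genes did) and 3 fell (16.7%, near the 15.6% of all genes) at E16.5 against E12.5. Itga1, the alpha chain of a collagen receptor whose product pairs with beta-1 integrin, rose by 1.75 ± 0.15 (adjusted p = 1.15e-09). Its means were 8.77 ± 0.41 at E16.5 and 7.01 ± 0.28 at E12.5. Ptprs, a receptor phosphatase of growing axons, had -0.72 ± 0.09 (adjusted p = 1.12e-06). Kdr, the main receptor of Vegfa, rose by 0.75 ± 0.18 (adjusted p = 0.0026) and is also on the endothelial list below. So is Flt1, which rose by 0.56 (adjusted p = 0.0352) and is named only for this overlap of the lists.

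Of the 29 intracellular effectors, 4 rose (13.8%, near the share over all genes, 2223 of 19351) and 9 fell (31%, against 15.6% of all genes) at E16.5 against E12.5. Rras and Mras, small GTPases on which the plexin GAP domain can act, rose by 1.54 ± 0.24 (adjusted p = 2.54e-05) and 1.0 ± 0.15 (adjusted p = 7.36e-06). Rnd3, another small GTPase, had -0.82 ± 0.11 (adjusted p = 2.05e-06). Dpysl2, the collapsin response mediator that carries the Sema3a signal to microtubules, had -0.80 ± 0.16 (adjusted p = 0.000464), and Tiam1, an activator of Rac, had -0.79 ± 0.10 (adjusted p = 1.07e-06).

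Markers of other cells were read over the same interval, in which 2223 of the 19351 genes were called higher and 15.6% lower. At E16.5 against E12.5, 11 of 14 endothelial markers rose and 0 fell (median 0.49), with means per array of 8.12 to 9.06 at E16.5 and 7.81 to 8.19 at E12.5. Macrophage markers had 3 of 13 higher and 0 lower (8.09 to 8.50 against 7.69 to 8.22). Neuronal markers had 0 of 14 higher and 4 lower (6.76 to 7.05 against 7.08 to 7.32), with Elavl4 and Snap25 below the lower quartile on all 24 arrays. Schwann cell markers had 1 of 8 higher and 1 lower (7.56 to 8.01 against 7.53 to 7.90), near the shares over all genes. Cdh19 was below the quartile throughout. Markers of fold mesenchyme and muscle connective tissue had 3 of 13 higher and 7 lower, with a median of -0.65 (8.64 to 8.81 against 8.91 to 9.34). Mesothelial markers had 3 of 9 higher and 1 lower (7.77 to 8.65 against 8.04 to 8.63). Hepatocyte markers had 11 of 12 higher and 0 lower, and red blood cell markers 0 of 8 higher and 3 lower. Those 3 were all globin genes, down to -5.67 for Hbb-bh1, and the other 5 were not called, so that list did not move as a whole. The part of these cells in the changes of the semaphorins and plexins was not tested.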

How the data were processed

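RNA of 24 samples was read on Affymetrix arrays, 1 per sample, 8 per stage, grouped by the labelled stage. The deposited table holds log2 values, 1 per probe set and array. Per the submitters' processing notes the tools were Affymetrix Expression Console 1.1, RMA and R 2.9.2, without their roles. Log2 was read from the range, 2.56 to 14.1, with array medians of 7.44 to 7.55, and joint normalization is not stated. Arrays have no read depth, so their number limits the precision.

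Of 24200 probe sets, 20760 matched 1 gene, 1140 several and 2300 none; the last 2 kinds were left out. The probe set with the highest mean was kept per gene. A linear model with a coefficient for each stage and no covariates was fitted to all 24 arrays over 19351 genes with limma 3.58.1 (R 4.3.3), after a test on simulated data. Tests were two-sided. Neuropilins were also compared by an exact permutation test. All genes of the family could be named, with up to 8 called partners and effectors per comparison and 1 gene per marker list. The members, lists and alternatives were chosen with earlier results of these data known. Alternatives are given in the closing section. Replicate numbers did not pair arrays: the correlation of deviations between equal numbers was at most 0.093. Promoter windows and gene order are RefSeq's, GRCm38.p6. Python 3.11.15, pandas 2.3.3 and matplotlib 3.10.9 were used.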

Additional observations from a re-analysis of the deposited data

Results flagged for a closer look

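In 7 of 93 groups of 8 arrays, 1 per gene and stage, the highest or lowest array stood far from the rest (its gap to the nearest array, over the range, exceeded Dixon's critical value). Chance flags about 1 in 20 groups. Low arrays were E12.5 replicate 4 for Sema3d (8.11, nearest 9.07) and E11.5 replicate 4 for Sema4f (6.15, nearest 6.50). High arrays were E12.5 replicate 7 for Plxna2 (9.71, nearest 9.32), E11.5 replicate 2 for Sema3b (7.69, nearest 7.29) and E12.5 replicate 4 for Sema4a (7.62, nearest 7.30). Sema7a was high on E11.5 replicate 6 (7.33, nearest 6.99) and on E16.5 replicate 1 (7.37, nearest 7.09).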

How the results depend on the processing

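Alternatives were fits of 2 stages alone, a block for the replicate number, a further quantile normalization, centring on the median or 75th percentile, the dimmest 25% of genes left out, the mean over probe sets, trend and robust options, array weights, and leaving out single arrays or the sets that stood apart. Of 14 genes called at E16.5 against E12.5, 8 kept their call under all of them, and of 13 at E16.5 against E11.5, 8 did. No called gene changed direction. At E12.5 against E11.5 no call was gained. The count of higher genes at E16.5 against E12.5 was 1 without E16.5 replicates 1 to 4 and ran from 2 to 5 over single arrays left out. Against E11.5 it was 1 without replicates 1 to 4 and 6 without replicates 5 to 8. With the replicate block 3 were higher and 10 lower in both comparisons. Of all genes, 11.2% were then higher and 14.9% lower against E12.5, and 13.6% and 18.1% against E11.5. Sema4g and Sema7a lost and Sema3e gained a call against E12.5. The Nrp1 minus Nrp2 change of 0.55 against E11.5 had p = 0.0625 in an exact sign-flip test over pairs. Without single arrays that change ran from 0.38 to 0.71, and against E12.5 from 0.25 to 0.56; at E12.5 against E11.5 it ran from -0.03 to 0.31. Sema4g also lost its call against E12.5 after quantile normalization or centring (adjusted p up to 0.104). Calls gained were Plxna4 against E12.5 with 2 stages alone, quantile normalization, either centring, dim genes left out or array weights (adjusted p 0.0283 to 0.0456), Plxna3 against E11.5 with quantile normalization, median centring or dim genes left out (0.0253 to 0.0475), and, with array weights, Sema3e (0.0405) and Sema5b (0.0483) against E12.5 and Sema3b (0.0488) against E11.5. Without E12.5 replicates 2 and 3, Sema3b (adjusted p = 0.053) and Sema4g (0.105) lost theirs. The cause was not tested.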
